A study of Drosophila melanogaster with 15 samples.

Results

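The proteasome subunits of the larval midgut, the insect counterpart of the small intestine, were examined here at the level of their transcripts. Members were taken by name from the symbols of the deposited table: every entry whose symbol begins with Prosalpha or Prosbeta, or with Rpn or Rpt followed by a digit. This gave 36 of 12133 entries, of which 32 are standard subunits and 4 carry an R at the end of their symbol and are treated as paralogs. The standard subunits are 7 alpha and 7 beta subunits of the core particle, 10 subunits of the base and 8 of the lid. All 36 were found in the Ensembl 115 annotation of Drosophila melanogaster build BDGP6.54 as protein-coding genes.

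The midguts came from larvae of the control strain w1118, whose eyes lack pigment, and all were raised on a yeast-only diet. Early L2 larvae were dissected 2 days after egg laying, late L2 larvae at 3 days and early L3 larvae at 4 days, with 5 biological replicates per stage that pooled 60, 30 or 10 midguts. Sex was not determined, no genotype or treatment differed between the stages, and larval age, stage and the number of pooled midguts changed together and cannot be told apart. Messenger RNA was sequenced in 15 libraries of 23981806 to 33902298 reads, and values are reads scaled to a library total of 1000000 (CPM).

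The 26S proteasome is the protease of the cytosol and nucleus that degrades proteins marked with ubiquitin. Its core particle is a barrel of stacked alpha and beta rings: the alpha rings gate the entrance, and Prosbeta1, Prosbeta2 and Prosbeta5 carry the caspase-like, trypsin-like and chymotrypsin-like active sites. The base unfolds substrates with a ring of 6 ATPases, Rpt1 to Rpt6, and holds the scaffolds Rpn1 and Rpn2 and the ubiquitin receptors Rpn10 and Rpn13. The lid holds the deubiquitinase Rpn11, its partner Rpn8 and scaffold subunits. Each standard subunit is needed in fixed proportion, and animals adjust subunit transcripts together through CNC-family (NRF1-like) transcription factors when proteasome activity falls short. Rpn10 sits between base and lid and was counted with the base. In Drosophila, several paralogs of proteasome subunits are known from the testis.

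The midgut label was checked against marker transcripts. The 6 enterocyte markers summed to 3160 to 4053 CPM in early L2, 2574 to 3280 CPM in late L2 and 3084 to 4114 CPM in early L3, so transcripts of absorptive gut cells were abundant in every library. Among them, the trypsin gene alphaTry averaged 173 ± 54.9 CPM in late L2 and 599 ± 81.1 CPM in early L2 and fell by 1.84 on the log2 scale (adjusted p = 1.23e-05 from limma). Of the 6, alphaTry was the only 1 lower in late L2 at an adjusted p under 0.05, against 12.8% of all entries. Only mex1 was higher (log2 fold change 0.27, adjusted p = 0.00811 from limma), against 13.8%. The 7 enteroendocrine markers summed to 142 to 166 CPM in early L2, 92.5 to 129 CPM in late L2 and 87.5 to 97.9 CPM in early L3. Of the 7, 5 fell in late L2 relative to early L2, at an adjusted p under 0.05 and by at least 0.5 on the log2 scale. Over all entries, 6.51% fell by these criteria. The 7 muscle markers, from the muscle layer that a dissected midgut retains, summed to 5059 to 7623 CPM in early L2, 4461 to 5522 CPM in late L2 and 4204 to 4928 CPM in early L3. The 5 tracheal markers summed to 31.2 to 47.4 CPM in early L3, below their sums of 67.2 to 154 CPM in late L2. By the criteria above, 4 of the 5 fell between these stages, against 18.7% of all entries. The other, btl, rose to a mean of 4.87 CPM in early L3 from 2.94 CPM in late L2, where 6.45% of all entries rose. The 3 matched fat body markers of 5 summed to at most 0.0417 CPM in early L2, to 144 CPM in late L2 replicate 4 against at most 11.0 CPM in the other late L2 libraries, and to between 0 and 165 CPM in early L3. In bulk tissue, fewer cells of a type and less RNA per cell cannot be told apart, and the part of these shifts in the results below was not tested.

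All standard subunits other than Prosalpha1 were abundant in every library. These 31 transcripts had 68.1 to 199 CPM, or 1634 to 6009 reads per library. The stages were tested on the log2(CPM + 0.5) scale with limma. The Benjamini-Hochberg adjustment ran over all 9787 entries that reached 0.5 CPM in 1 or more libraries. The words rise and fall are kept for transcripts that passed 2 criteria, an adjusted p under 0.05 and a log2 fold change of 0.5 or more in size. Of the 36 members, 34 were tested, and Rpt4R and Rpt6R stayed below the filter.

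During the L2 stage, transcripts of nearly all standard subunits were slightly higher in late L2 than in early L2 midguts, and by similar amounts. The median log2 fold change of the 32 standard subunits was 0.19, a 1.14-fold difference, against a median of 0.014 over all entries. In the same comparison, the enteroendocrine, muscle and enterocyte markers had medians of −0.55, −0.30 and −0.25. The tracheal and matched fat body markers had medians of 0.52 and 1.30, and 3 midgut progenitor and 3 tested hemocyte (blood cell) markers 0.023 and 0.32. The progenitor and hemocyte markers summed to at most 7.40 and 1.38 CPM in late L2. The part of these shifts in the result was not tested. None of the 32 passed the test with its minimum fold change in limma, where 29 had an unadjusted p under 0.05, and edgeR and DESeq2 on the recovered reads called no standard subunit either. Over all entries, 9.89% passed that test in either direction. With no minimum fold change, 28 of 32 were higher at an adjusted p under 0.05, against 13.8% of all entries, and 0 were lower, against 12.8%. The ranges of the 5 late L2 and 5 early L2 libraries did not overlap for 21 of 32 subunits, all higher in late L2, against 9.73% of all entries. The median over the standard subunits stayed between 0.164 and 0.214 when any 1 library was left out, and between 0.15 and 0.219 under every other alternative run.

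**Figure D1:**
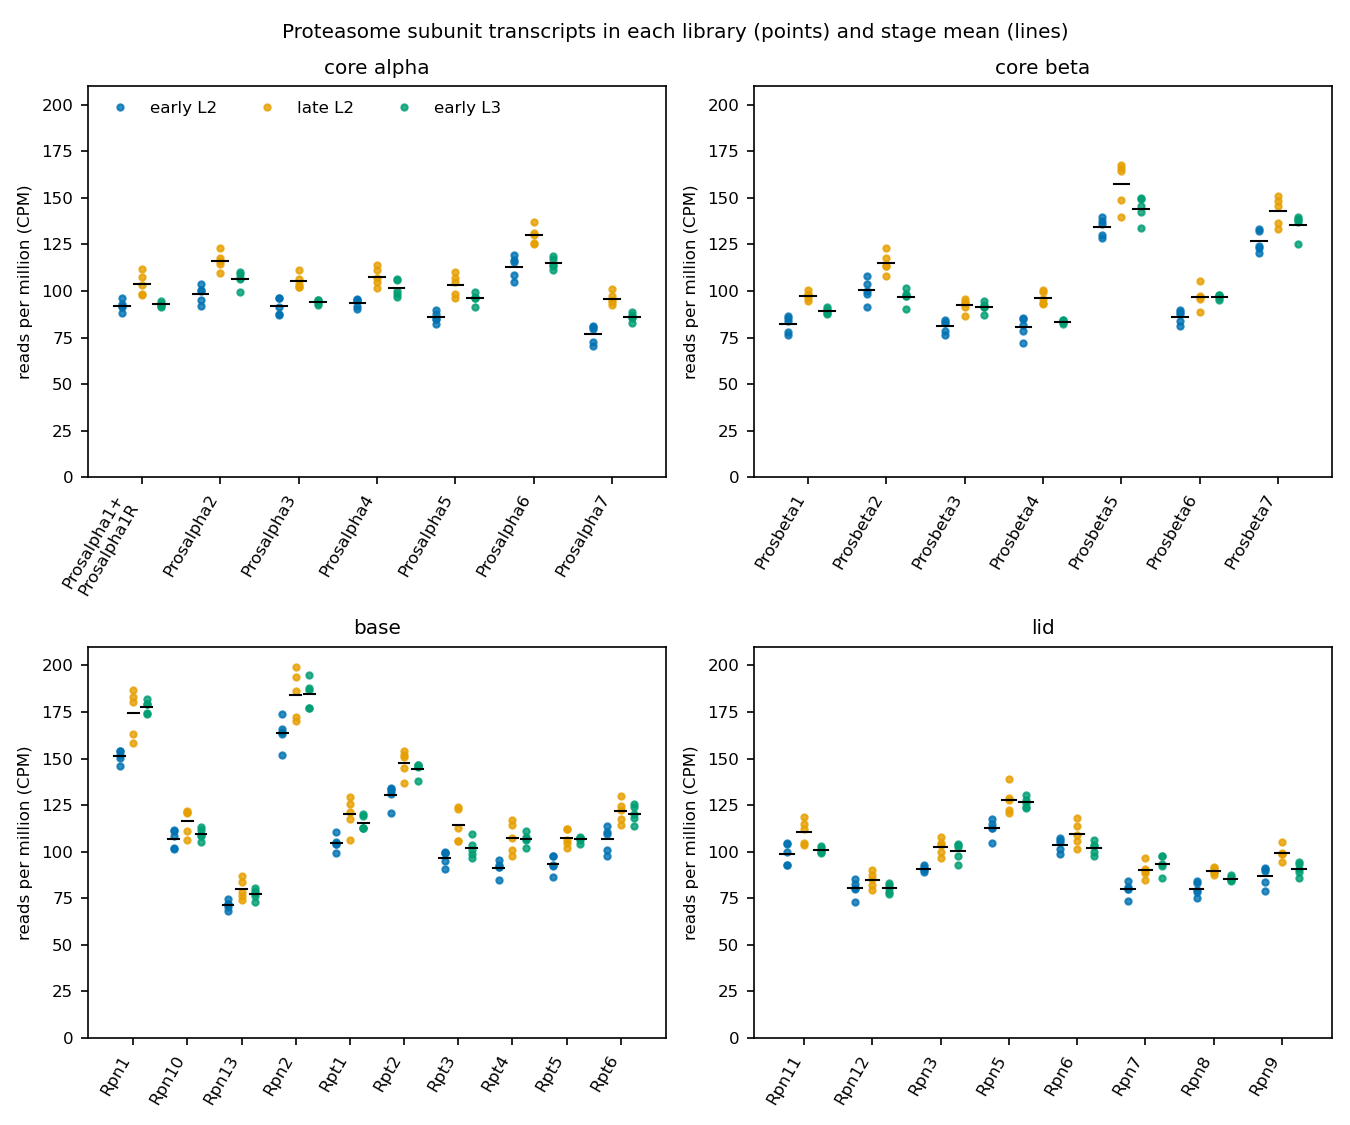
Levels in CPM of the proteasome subunits in each of the 15 libraries, with 1 panel each for core alpha, core beta, base and lid. Points are libraries, black lines are stage means, and Prosalpha1 and Prosalpha1R are drawn as their sum. The 31 other standard subunits lie between 68.1 and 199 CPM.

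Of the 28 standard subunits with an adjusted p under 0.05, the largest difference was that of Prosalpha7, an outer-ring subunit of the core (chr2R:9846636-9847836). Prosalpha7 had 95.2, 101, 97.0, 94.0 and 92.3 CPM in late L2 midguts, against 80.6, 70.7, 79.6, 72.4 and 81.0 CPM in early L2 midguts. Every late L2 library lay above every early L2 library (log2 fold change 0.32, SE 0.05, adjusted p = 0.000122 from limma). Prosalpha5, of the same ring, averaged 103 ± 5.90 CPM in late L2 and 85.9 ± 2.80 CPM in early L2 (SD, n = 5 each), with a log2 fold change of 0.26. Prosbeta4, a beta subunit without an active site, had 95.5, 100.4, 99.3, 92.9 and 93.6 CPM in late L2, against 85.7, 78.4, 84.7, 71.9 and 81.8 CPM in early L2. Its ranges did not overlap either (adjusted p = 0.000723 from limma, log2 fold change 0.26).

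The smallest differences were in the lid and the base. Rpn6, a lid scaffold (chr2R:14750166-14752910), had 118, 109, 114, 102 and 106 CPM in late L2 and 105, 101, 106, 99.0 and 107 CPM in early L2, with overlapping ranges (log2 fold change 0.08, adjusted p = 0.22 from limma). Rpn12, another lid scaffold, had 85.5, 90.0, 87.3, 79.6 and 81.9 CPM in late L2 and 85.5, 80.8, 82.5, 72.7 and 80.0 CPM in early L2 (adjusted p = 0.236 from limma). The ubiquitin receptor Rpn10 had a log2 fold change of 0.12 and an adjusted p of 0.0734 from limma. These 3 and Prosalpha1 were the standard subunits with an adjusted p of 0.05 or more. A higher level at an adjusted p under 0.05 was found for 6 of 7 alpha, 7 of 7 beta, 9 of 10 base and 6 of 8 lid subunits, and for 6 of 6 Rpt ATPases.

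The sizes of the differences lay close together. Leaving out Prosalpha1 (log2 fold change 1.01), their SD was 0.049 over 31 standard subunits, against 0.392 over all entries. These 31 had 1634 to 6009 reads per library, while all entries include transcripts that barely reached 0.5 CPM. The part of level in this gap was not tested. Their log2 fold changes ran between 0.08 and 0.32, and the bounds of their 95% confidence intervals between −0.021 and 0.41, below the minimum fold change of 0.5. Medians were 0.24 in the alpha ring, 0.20 in the beta ring, 0.19 in the base and 0.17 in the lid.

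**Figure D2:**
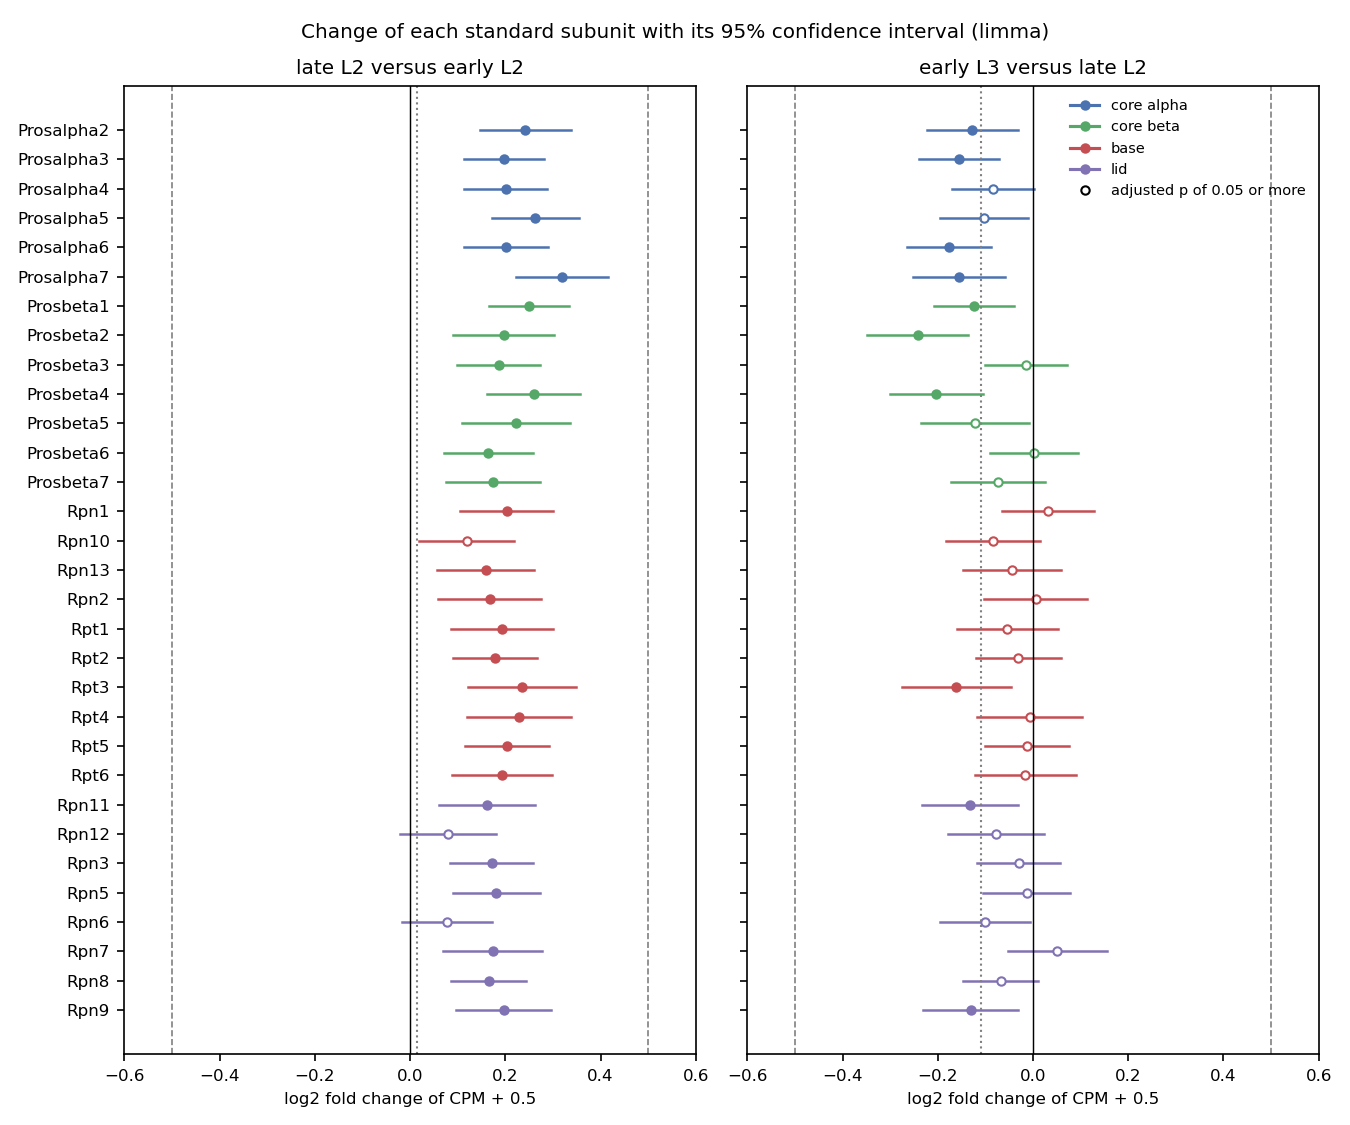
Log2 fold change with its 95% confidence interval from limma for 31 standard subunits, coloured by subcomplex, for the interval during L2 and the interval into early L3. Filled points have an adjusted p under 0.05, dotted lines mark the median of all entries (0.014 and −0.11) and dashed lines the minimum fold change of 0.5. No interval reaches 0.5 in either comparison.

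Between late L2 and early L3, when 25.1% of all entries passed the test, no proteasome subunit rose or fell. In limma, 13 of 32 standard subunits had an unadjusted p under 0.05, and edgeR and DESeq2 also called none. The median log2 fold change of the 32 was −0.081, against −0.11 over all entries. With no minimum fold change, 10 of 32 were lower in early L3 at an adjusted p under 0.05, against 37.0% of all entries, and 0 were higher, against 17.0%. Without late L2 replicate 2, 6 of 32 were lower, against 34.2% of all entries. Ranges did not overlap for 7 of 32, all lower in early L3, against 28.3% of all entries.

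The sign of this small difference depended on how libraries were scaled. Median-ratio scaling moved the median of all entries by 0.128 and gave the 32 standard subunits a median of 0.0668, with 11 higher and 0 lower at an adjusted p under 0.05, where 28% of all entries were higher and 26.7% lower. TMM scaling gave 0.0531, also with 11 higher and 0 lower, against 26.8% and 27.5% of all entries. DESeq2 gave 0.0678, with 12 higher and 0 lower, against 28.4% and 26.9%. Relative to the median of all entries, the standard subunits stood at 0.029 in CPM, 0.048 after median-ratio scaling and 0.046 after TMM scaling, but at −0.11 after quantile normalization. No direction is therefore given for the subunits as a group in this interval, while no alternative with the minimum fold change called a subunit.

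Differences between members within a library do not depend on scaling by 1 factor per library, as in median-ratio and TMM scaling. Quantile normalization can change them. Each library was therefore described by 32 positions, with Prosalpha1 and Prosalpha1R summed as 1, and each position was set against the mean of the 32. Prosbeta2, the trypsin-like subunit (chr3L:14999951-15001319), moved furthest down relative to the others. It had 90.4, 97.0, 98.5, 102 and 97.4 CPM in early L3, against 113, 123, 117, 108 and 113 CPM in late L2. Its log2 level relative to the mean of the positions was −0.12 in early L3 and 0.040 in late L2, with ranges that did not overlap. The limma test on CPM gave it a log2 fold change of −0.24 (SE 0.05, adjusted p = 0.000714).

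Prosbeta4 followed the same order. It had 83.2, 84.2, 82.1, 84.3 and 84.0 CPM in early L3, against 95.5, 100.4, 99.3, 92.9 and 93.6 CPM in late L2, and limma gave a log2 fold change of −0.20 (adjusted p = 0.00148). Its relative log2 level was −0.33 in early L3 and −0.21 in late L2, again without overlap. The Prosalpha1 pair and Prosalpha7 were also lower relative to the mean position, without overlap, by 0.075 and 0.073 on the log2 scale.

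In the other direction, Rpn1, the base scaffold that docks ubiquitin shuttles (chr3L:19915051-19918160), had 174, 182, 179.5, 179 and 174 CPM in early L3, against 180.2, 187, 183, 159 and 163 CPM in late L2. In CPM these ranges overlapped (log2 fold change 0.031, adjusted p = 0.59 from limma). Relative to the mean position, Rpn1 was at 0.75 in early L3 and 0.64 in late L2, and the ranges did not overlap. The ATPases Rpt2 and Rpt5 and the beta subunits Prosbeta3 and Prosbeta6 were likewise higher relative to the mean position, without overlap, by 0.051 to 0.083 on the log2 scale. For such relative levels, higher or lower, the share of all entries without overlap was not computed. In CPM, 11.7% of all entries were higher in early L3 than in late L2 without overlap, and 28.3% were lower. Rpn7, a lid scaffold, had the largest mean shift, 0.13, but its ranges overlapped.

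By subcomplex, 8 of 10 base positions were above 0 in this relative change between early L3 and late L2, whereas 7 of 7 alpha positions were below 0. The beta ring was divided, with 3 above and 4 below, and the lid had 5 above and 3 below. Ranges did not overlap for 3 of 10 base positions, all higher, and 2 of 7 alpha positions, all lower. In the beta ring this held for 2 higher and 2 lower positions, and in the lid for 0. Prosalpha4 and Rpn10 were counted as below 0 at only −0.0026 and −0.0025. These counts describe positions of the same libraries, which are not replicates, and were chosen after the values were seen. Each position is set against the mean of all positions, so changes below 0 have to be balanced by changes above 0. The opposite signs of base and alpha are therefore not independent.

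The balance of base and core was described as the difference of their mean log2 levels in each library. It was 0.178, 0.220, 0.189, 0.200 and 0.208 in early L2, 0.169, 0.187, 0.214, 0.130 and 0.149 in late L2, and 0.269, 0.278, 0.274, 0.250 and 0.210 in early L3. Of the early L3 libraries, 4 lay above all late L2 and early L2 libraries, and replicate 5 lay within their range. The difference of lid and core was −0.069 to −0.040 in early L2, −0.155 to −0.091 in late L2 and −0.111 to −0.036 in early L3. For the lid, all late L2 libraries were below all early L2 libraries, and late L2 and early L3 overlapped.

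**Figure D3:**
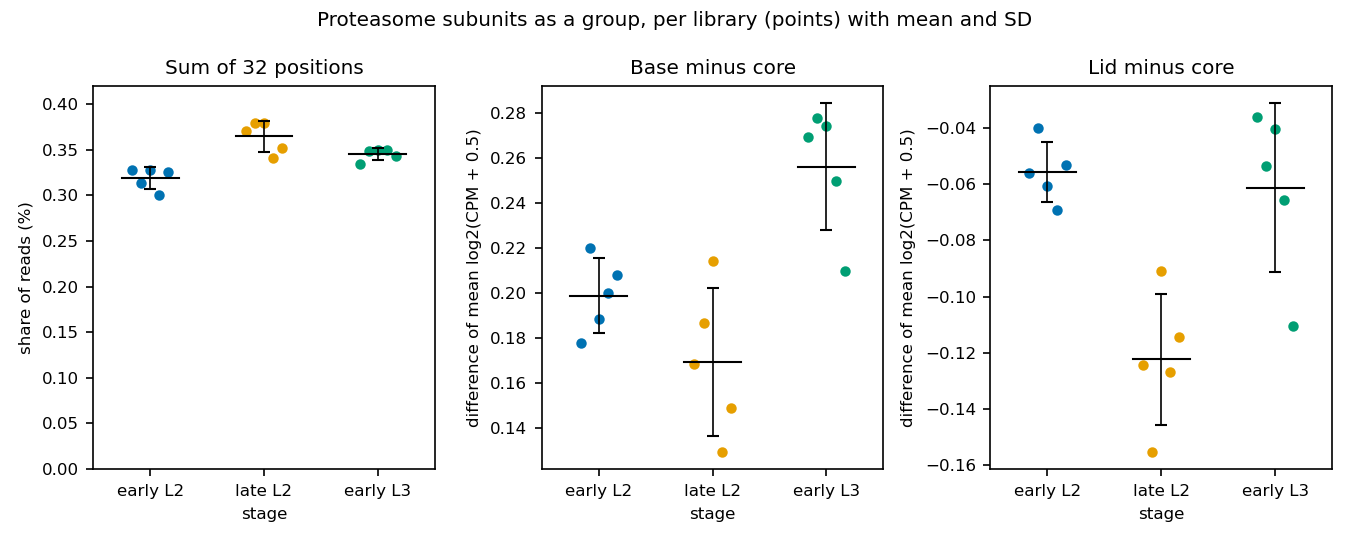
Share of all reads in the 32 proteasome positions, and the differences of mean log2(CPM + 0.5) between base and core and between lid and core, per library. Points are libraries, horizontal lines means and bars SD (n = 5 per stage). Base minus core lies between 0.130 and 0.214 in late L2 and between 0.210 and 0.278 in early L3.

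Across the whole interval, from 2 to 4 days, 19 of 32 standard subunits were higher in early L3 than in early L2 at an adjusted p under 0.05 with no minimum fold change, against 22.3% of all entries, and 0 were lower, against 42.7%. The median log2 fold change was 0.12, against −0.15 over all entries, and was 0.271 after median-ratio scaling. None passed the minimum fold change in limma, where 20 had an unadjusted p under 0.05, while 34.2% of all entries did. Ranges did not overlap for 17 of 32, all higher in early L3, against 16.2% of all entries. The base had the most members here, 8 of 10, followed by 4 of 7 alpha, 3 of 7 beta and 4 of 8 lid subunits.

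Of the 19, the largest differences were those of Rpn1, Rpn7 and Rpt4. Rpn1 averaged 178 ± 3.58 CPM in early L3 and 151 ± 3.34 CPM in early L2 (adjusted p = 0.000333 from limma, log2 fold change 0.23). Rpn7 had 85.9, 97.7, 93.3, 97.6 and 92.1 CPM in early L3, against 80.2, 80.9, 80.0, 73.3 and 84.5 CPM in early L2 (log2 fold change 0.22). Rpt4, an ATPase of the base ring (chrX:6289470-6291245), averaged 107 ± 3.27 CPM in early L3 and 91.5 ± 3.95 CPM in early L2, with a log2 fold change of 0.22. Prosbeta2 stood at the other end, with a log2 fold change of −0.046 and overlapping ranges.

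Together, the 32 positions took 0.3003% to 0.328% of all reads in early L2, 0.342% to 0.380% in late L2 and 0.335% to 0.350% in early L3. Neither later stage overlapped with early L2, whereas late L2 and early L3 overlapped.

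The change into early L3 minus the change during L2 was also tested in each member. Both changes share the late L2 libraries, so that a high or low late L2 value moves them apart. All 34 tested members had a negative difference, with a median of −0.24 over the standard subunits and −0.11 over all entries. At an adjusted p under 0.05 with no minimum fold change, 20 of 32 standard subunits were negative, against 26.8% of all entries, and 0 were positive, against 9.45%. These were 12 of 14 core, 4 of 10 base and 4 of 8 lid subunits. Of the 20, Prosalpha7 had the most negative difference, −0.47 (adjusted p = 0.000409 from limma). Rpn7, not among the 20, had the smallest difference of the standard subunits, −0.12 (adjusted p = 0.28), and Prosalpha1 had −1.56 with an SE of 1.19 (adjusted p = 0.329). No member passed the minimum fold change in limma as set out above, against 24.9% of all entries (6.50% positive and 18.4% negative). With all libraries, Rpt3R passed it with a pseudocount of 0.1, no filter, no intensity trend or the replicate block. Rpt3R also passed it, at −0.702 to −0.809, when replicate 1 or 2 of early L3, replicate 2 of early L2 or replicate 5 of late L2 was left out, and Prosalpha7 in the last of these, at −0.501. In limma, 28 of 32 standard subunits had an unadjusted p under 0.05. After median-ratio scaling the median was −0.0968 and 10 standard subunits were negative at an adjusted p under 0.05, against 19.9% of all entries.

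Within a stage, the subunits moved up and down together from library to library. Early L2 replicate 4 had the lowest value of its stage for 28 of 32 positions, late L2 replicate 4 for 28 and early L3 replicate 1 for 21. The mean log2 level of the positions was 0.087 below its stage mean in early L2 replicate 4 and 0.090 below in late L2 replicate 4, where the mean of all entries was 0.046 and 0.035 below. In early L3 replicate 1 the positions were 0.044 below and all entries 0.070 above. Late L2 replicate 4 was also the library with 144 CPM of fat body markers, and its part in the spread was not tested. Taking the mean of the 32 positions off each library reduced the median SD between replicates to 0.036, from 0.065, in early L2 and to 0.041, from 0.070, in late L2. Early L3 replicates differed less, with a median SD of 0.032 after and 0.044 before this step.

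Levels per length differed between the subcomplexes in the same order at every stage. Per kb of exon in late L2 midguts, the median was 109 CPM over 6 alpha subunits, 114 CPM over 7 beta subunits, 73.4 CPM over 10 base subunits and 61.9 CPM over 8 lid subunits, leaving out Prosalpha1. In each library, the median level of the base was 0.625 to 0.705 times that of the core, and that of the lid was 0.542 to 0.606 times that of the core. With coding length in place of exon length these ratios were 0.581 to 0.648 for the base and 0.560 to 0.618 for the lid.

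Prosbeta5, the chymotrypsin-like subunit (chr2R:10819978-10821178), had the highest level per length, 138 ± 10.9 CPM per kb in late L2 (SD, n = 5). In CPM it had 139.6, 130.2, 138, 128 and 136 in early L2, 164, 168, 166, 139.6 and 149 in late L2, and 134, 142, 145, 149.6 and 149.8 in early L3. The late L2 values spread more than those of the other stages, with replicates 4 and 5 inside or near the early L2 range. Prosalpha2 (chr3R:12431321-12432556) and Prosalpha6 (chr2L:10221351-10222546), both of the alpha ring, followed with 126 ± 5.47 and 121 ± 4.45 CPM per kb. The ranges of these 3 transcripts overlapped between neighbours in the order.

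Prosalpha2 had 104, 95.03, 100.2, 91.8 and 101 CPM in early L2, 118, 123, 115, 109 and 116 CPM in late L2, and 99.3, 107, 109.9, 109 and 107 CPM in early L3. Prosalpha6 had 119, 109, 116, 105 and 115 CPM in early L2, 131, 130.3, 137, 125 and 126 CPM in late L2, and 114, 111, 113, 117 and 119 CPM in early L3. In both, the late L2 libraries lay above all early L2 libraries, and early L3 overlapped with early L2.

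After Prosalpha1, the lowest levels per length belonged to the ubiquitin receptor Rpn13 (chr2R:13958545-13960404), the base scaffold Rpn2 (chr3R:29153524-29157255) and the lid scaffold Rpn3 (chr2L:19051790-19053681), with 47.8 ± 3.28, 54.0 ± 3.75 and 55.9 ± 2.38 CPM per kb in late L2. Rpn13 had 70.5, 68.1, 74.5, 71.7 and 72.03 CPM in early L2, 78.1, 83.7, 87.2, 73.9 and 76.2 CPM in late L2, and 76.4, 80.6, 78.9, 77.9 and 72.8 CPM in early L3. Rpn2 had 164, 163, 166, 152 and 174 CPM in early L2, 194, 186, 199, 170.1 and 172 CPM in late L2, and 177, 195, 188, 187 and 177 CPM in early L3. The early L3 libraries of Rpn2 lay above all its early L2 libraries, while late L2 overlapped with both. Rpn3 had 90.5, 90.0, 93.0, 88.8 and 91.6 CPM in early L2, 103, 105, 108, 96.5 and 99.7 CPM in late L2, and 97.7, 104, 103, 104 and 93.1 CPM in early L3. Both later stages of Rpn3 lay above early L2 without overlap, and neighbours in the order of these 3 transcripts overlapped.

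**Figure D4:**
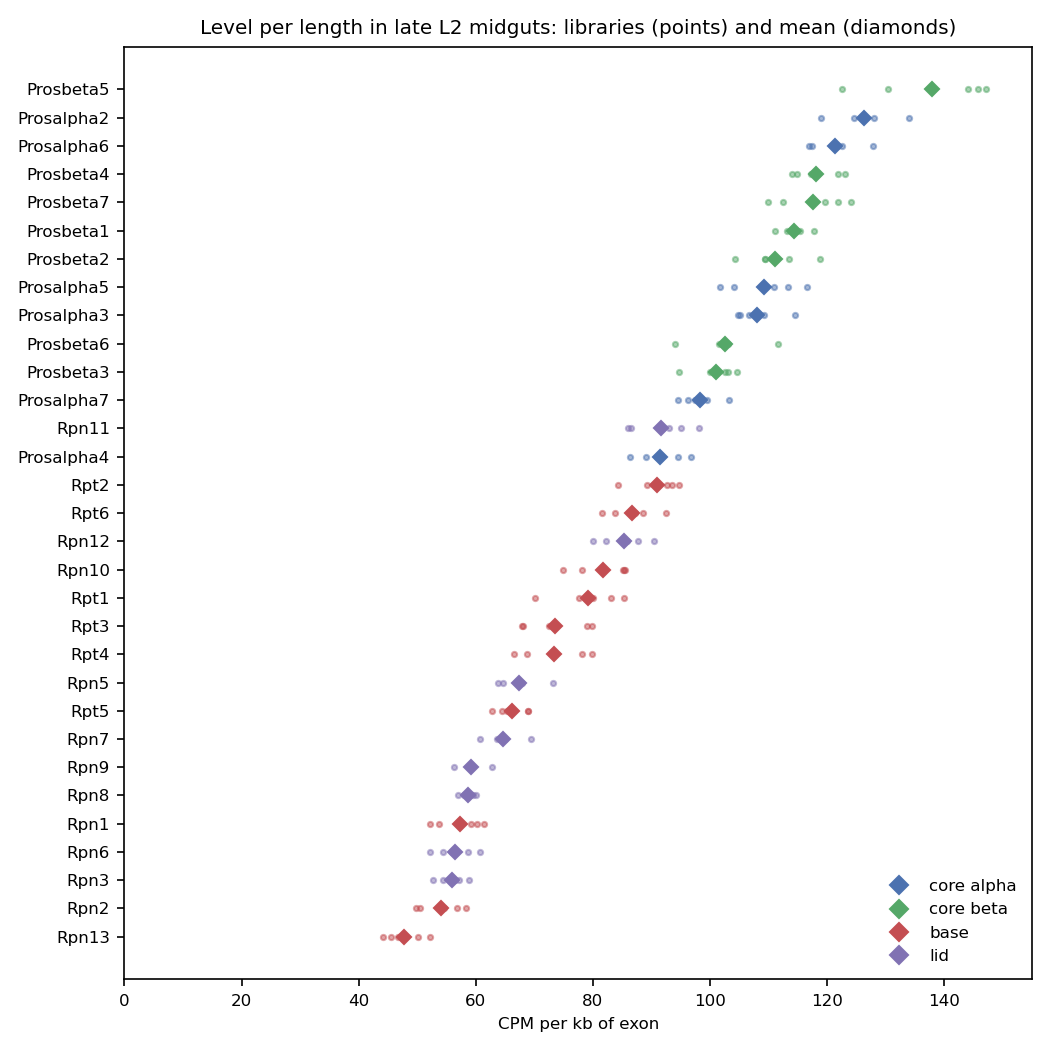
Level per length, as CPM per kb of exon, of 31 standard subunits in late L2 midguts, coloured by subcomplex and ordered by mean. Small points are the 5 libraries and diamonds their mean. Core subunits lie mostly at the top, up to 138 CPM per kb for Prosbeta5, and base and lid subunits reach down to 47.8 CPM per kb for Rpn13. The lid subunit Rpn11, at 91.69 CPM per kb, lies just above the core subunit Prosalpha4, at 91.51.

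The core subunit Prosalpha1 and its paralog Prosalpha1R differed in level against their naming, with the paralog the more abundant in every library. Both lie on the same strand of chromosome 2R, Prosalpha1 at chr2R:7827303-7828678 and Prosalpha1R at chr2R:7830413-7831771, 1734 bases apart, each with 4 exons and a coding length of 732 bases. Prosalpha1 had 3.40, 4.96, 2.14, 0.852 and 0 CPM in early L2, 3.99, 0.907, 4.05, 4.02 and 9.24 CPM in late L2, and 7.03, 1.99, 5.997, 0.765 and 0.708 CPM in early L3. Prosalpha1R had 92.9, 86.7, 90.8, 87.1 and 91.1 CPM in early L2, 99.2, 111, 103, 94.2 and 88.6 CPM in late L2, and 84.2, 92.4, 87.2, 91.4 and 92.2 CPM in early L3. Prosalpha1R was at 84.2 to 111 CPM over all libraries, within the range of the other standard subunits, and the values of Prosalpha1 varied widely within each stage. The recovered reads of Prosalpha1 fell on few values, which are given at the end. Whether its spread is one of transcript level was not tested.

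How reads that fit both genes were assigned is not given in the sources used here, so the split between them is uncertain. Prosalpha1 made up 0% to 5.41% of the pair in early L2, 0.813% to 9.45% in late L2 and 0.762% to 7.70% in early L3, and its 0 reads in early L2 replicate 5 allow up to 0.101 CPM. Neither gene passed the test in any comparison with its minimum fold change. For Prosalpha1 the log2 fold change of late L2 versus early L2 was 1.01, but with an SE of 0.69 (adjusted p = 0.308 from limma). Prosalpha1R was lower in early L3 than in late L2 at an adjusted p of 0.0321 from limma (log2 fold change −0.14), with overlapping ranges. Their sum, which does not depend on the split, was 88.0 to 96.3 CPM in early L2, 97.8 to 112 CPM in late L2 and 91.2 to 94.4 CPM in early L3. The late L2 sums lay above those of both other stages without overlap.

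**Figure D5:**
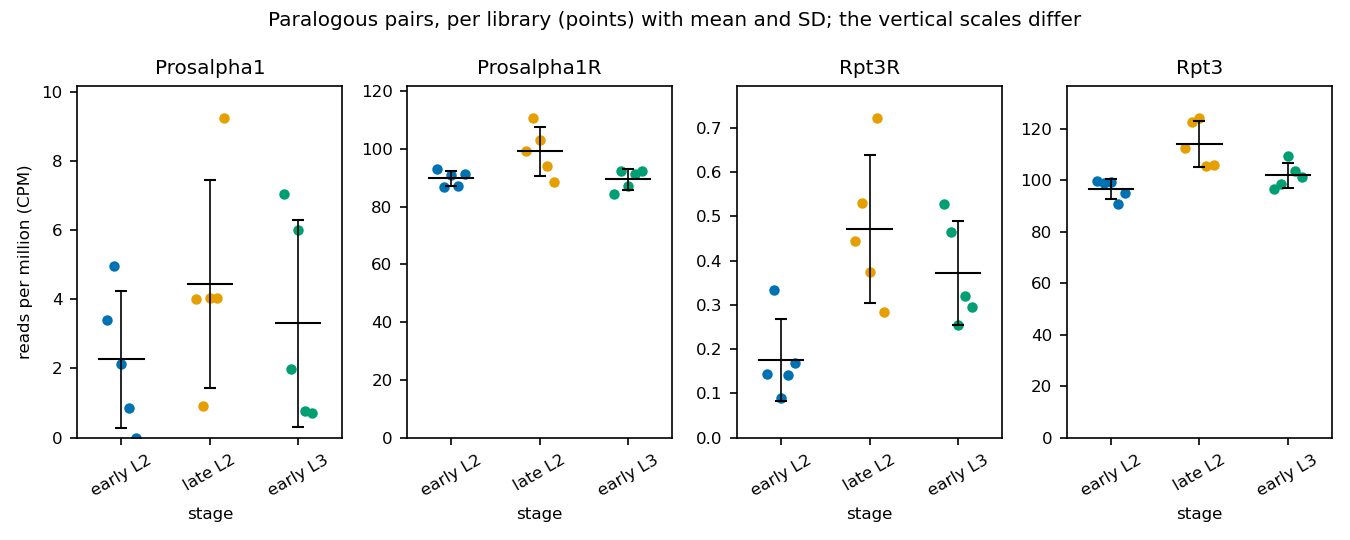
Levels in CPM of Prosalpha1, Prosalpha1R, Rpt3R and Rpt3 in each library, with vertical axes that start at 0 and differ between panels. Points are libraries, horizontal lines means and bars SD (n = 5 per stage). Prosalpha1 lies between 0 and 9.24 CPM and Rpt3R below 1 CPM, while Prosalpha1R and Rpt3 lie near 100.

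Rpt3R, a paralog of the base ATPase Rpt3 at chr3R:9754735-9756510, was the only member that passed the test in any of the 3 stage comparisons. Rpt3R had 0.444, 0.529, 0.374, 0.722 and 0.283 CPM in late L2, against 0.145, 0.334, 0.0904, 0.142 and 0.169 CPM in early L2. These values come from 8 to 21 reads per library in late L2 and 3 to 8 reads in early L2. The ranges overlapped, since early L2 replicate 2 lay above late L2 replicate 5. Over all entries, 3.38% rose in this comparison. Rpt3R rose by 0.52 on the log2(CPM + 0.5) scale (SE 0.15, adjusted p = 0.0157 from limma), which understates the change of a transcript at this level, and edgeR and DESeq2 gave 1.45 and 1.46. The call was lost with a pseudocount of 1 or 4, with array weights, and without early L2 replicate 3 or 4 or late L2 replicate 2 or 4, where log2 fold changes were 0.428 to 0.499. The transcript passed the filter on low values only through late L2 and early L3 libraries.

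In early L3, Rpt3R had 0.528, 0.465, 0.254, 0.319 and 0.295 CPM, which overlapped with both L2 stages. Its log2 fold change of early L3 versus early L2 was 0.37 (adjusted p = 0.0366 from limma), under the minimum, and was called by edgeR and DESeq2 at 1.24 and 1.27. Rpt3 itself (chrX:11125101-11126785) had 113, 123, 124, 106 and 106 CPM in late L2, against 99.7, 99.0, 99.2, 90.6 and 95.1 CPM in early L2 (adjusted p = 0.00441 from limma, log2 fold change 0.24). In early L3 it had 96.7, 98.6, 109, 104 and 101 CPM, lower than in late L2 at an adjusted p of 0.0187 (log2 fold change −0.16). Per kb of exon in late L2, Rpt3 was 227-fold above Rpt3R, which made up 0.411% of the reads of the 2 genes.

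Rpt4R and Rpt6R, paralogs of the ATPases Rpt4 and Rpt6, were at the edge of detection. Rpt4R had 0 to 3 reads per library in early L2, 0 to 5 in late L2 and 0 to 3 in early L3, and was at 0 in 7 of 15 libraries. Rpt6R had 0 to 3 reads in early L2, 0 to 6 in late L2 and 0 to 3 in early L3, and was at 0 in 3 libraries. A count of 0 allows up to 0.125 CPM in the shallowest library, so no difference between stages was detectable at this depth. The 3 matched testis markers of 11 summed to 0.121 to 0.338 CPM in early L2, 0.170 to 0.410 CPM in late L2 and 0.297 to 0.649 CPM in early L3, similar in size to the Rpt paralogs. Their part in the Rpt3R result was not tested.

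Genes that supply, assist or regulate the proteasome were followed in a list of 30, of which 28 were matched and tested. The list also holds Sem1, a small lid subunit whose symbol the naming rule does not cover. It is therefore not in the lid counts above. During L2, 0 of 28 passed the test in limma, against 3.38% of all entries that rose and 6.51% that fell. In limma 14 were higher and 2 lower at an adjusted p under 0.05 with no minimum fold change, against 13.8% and 12.8% of all entries. The AAA ATPase TER94, which extracts ubiquitinated proteins for the proteasome, and its cofactors Ufd1, Npl4, p47 and Plap were 5 of the 14. TER94 averaged 485 ± 30.2 CPM in late L2 and 421 ± 33.4 CPM in early L2 (log2 fold change 0.21), close to the median of the subunits. Of the 6 genes around the transcription factor CNC, Keap1 and maf-S, which encode its inhibitor and its DNA-binding partner, were the 2 lower ones, with log2 fold changes of −0.44 and −0.36, and sip3 was higher. The cnc transcript averaged 243 ± 15.9 CPM in late L2 and 272 ± 15.7 CPM in early L2 (adjusted p = 0.0667 from limma, with a log2 fold change of −0.17). The transcripts of both selective autophagy genes in the list, ref(2)P and Atg8a, did not pass the test in this interval.

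Into early L3, 2 of the 28 rose and 1 fell, against 6.45% and 18.7% of all entries. The proteasome activator REG, the counterpart of mammalian PA28gamma that opens the core particle without the 19S base and lid, averaged 69.3 ± 8.68 CPM in early L3 and 123 ± 14.5 CPM in late L2. It fell by 0.82 on the log2 scale (SE 0.09, adjusted p = 3.62e-06 from limma), in an interval in which no core subunit passed the test. Ubi-p63E, a polyubiquitin gene, averaged 203 ± 35.5 CPM in early L3 and 139 ± 17.2 CPM in late L2 and rose by 0.54, with early L3 replicate 3 apart at 142 CPM. Without late L2 replicate 2 or 4 or early L3 replicate 4 its log2 fold change was 0.483 to 0.499, under the minimum. Atg8a, the ubiquitin-like protein of autophagosomes, averaged 145 ± 30.0 CPM in early L3 and 93.9 ± 10.2 CPM in late L2 and rose by 0.61, and by 0.495 with array weights, under the minimum. Without early L3 replicate 1, 5 of the 28 passed, against 26.6% of all entries. After median-ratio or TMM scaling, 5 of the 28 passed, against 23% of all entries, the added genes being ref(2)P and sip3, with positive log2 fold changes.

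The ubiquitin genes fused to ribosomal proteins were the most abundant transcripts of the list. RpS27A averaged 1202 ± 65.7 CPM in early L3 and 1551 ± 68.2 CPM in late L2 (log2 fold change −0.37), and RpL40 averaged 734 ± 52.5 CPM in early L3 and 1020 ± 71.1 CPM in late L2 (log2 fold change −0.47). Between early L3 and early L2, 3 of the 28 passed the test, where 9.86% of all entries rose and 24.3% fell. RpL40 and REG fell, by 0.61 and 0.72 on the log2 scale, and sip3, an ER ubiquitin ligase, rose by 0.59 to 127 ± 7.14 CPM, against 84.0 ± 4.56 CPM in early L2. Without early L3 replicate 3, 5 of the 28 passed, against 35% of all entries. After median-ratio scaling RpL40 stayed under the minimum, at −0.457, and Ubi-p63E, Atg8a and Hrd3, whose product works with the ligase sip3, passed, at 0.575, 0.522 and 0.553, so that 5 of the 28 passed, against 32.5% of all entries. TMM scaling, edgeR and DESeq2 lost and added the same genes. The difference between the intervals passed for 6 of the 28, a share near the 24.9% of all entries. Ubi-p63E, ref(2)P and Atg8a were positive, against 6.50% of all entries, and REG, the deubiquitinase gene Uch-L5 and Plap were negative, against 18.4%. Several of these calls did not hold in other settings. Plap was under the minimum after median-ratio, TMM or quantile scaling and in edgeR and DESeq2, at −0.454 to −0.417, and Uch-L5 after median-ratio or quantile scaling and in DESeq2, at −0.483 to −0.44. The call of ref(2)P was lost with array weights, with no intensity trend and when any 1 of 11 of the 15 libraries was left out. That of Ubi-p63E was lost with the replicate block and without late L2 replicate 2, 4 or 5.

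Several subunit genes share exon bases with a gene on the opposite strand, up to 13% of the exon bases of Rpt6 with CG1801. The libraries were made with a stranded kit, but whether counting used the strand is not given in the sources used here, so reads of such overlaps could not be assigned with certainty. Prosbeta2, Prosbeta5, Rpt2, Rpt4, Rpn7 and Rpn9 each share 6.32% to 8.28% with 1 opposite gene, which bears on their values above.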

How the data were processed

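Poly(A) RNA of w1118 larval midguts at 3 stages (5 replicates each) was sequenced from stranded libraries. A deposited table gives each entry in CPM, which the authors scaled to 1000000 reads per library. The submitters' notes list Salmon 1.5.2, STAR 2.7.10a, DESeq2, Picard, Trim Galore 0.6.7, MultiQC 1.11, FastQC and build BDGP6, without roles, and how reads that fit several genes were handled is not given in the sources used here. Dividing each CPM column by the value of 1 read gave whole reads, within 0.001, for 100% of 166854 values; whether these are rounded estimates is not stated. ERCC spike-ins, added per the study's methods, have 0 entries in the table. A table of the authors' own comparisons (their log2 fold changes and adjusted p-values) was not used.

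The 9787 entries that reached 0.5 CPM in 1 or more libraries were tested as log2(CPM + 0.5) with limma 3.58.1 in R 4.3.3, in 1 fit over 15 libraries with an intensity trend and no replicate block, and p-values were adjusted within each comparison. Recovered reads were also tested with edgeR 4.0.16 and DESeq2 1.42.0. Other alternatives were pseudocounts, filters, scalings, array weights, a replicate block, other minimum fold changes and leaving out libraries. The test was checked on simulated data. Exon lengths, coordinates and 12094 matched identifiers came from the Ensembl 115 annotation of BDGP6.54.

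The members and gene lists were chosen with earlier results of these data known. Values in every library were due for members that passed the test, for paralogs with at least 0.5 CPM in a library and the related standard subunit, and for the 3 highest and 3 lowest standard subunits per length. From the list of 30, genes that passed and the 3 most abundant were named. Other members with values (such as Prosalpha7, Prosbeta2, Prosbeta4, Rpn1, Rpn6, Rpn7 and Rpn12) and cnc, Keap1 and maf-S were chosen after their values were seen, as was the description by 32 positions. Uch-L5R and Ecm29 of the list were not matched. Replicates are separate pools of midguts. Promoter motifs and protein sequences were not analysed here.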

Additional observations from a re-analysis of the deposited data

Results flagged for a closer look

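Of 159 groups of 5 libraries examined, 5 had 1 library far from the other 4, by a gap of more than 0.71 of the range of the group. Chance alone gives about 1 group in 20, a larger share than the 5 of 159 found here. Rpt2 had 121 CPM in early L2 replicate 4, against 131 CPM in the nearest other early L2 library. Rpt2 also had 138 CPM in early L3 replicate 1, against 146 CPM in the nearest other library, and Prosbeta7 had 125 CPM there, against 137 CPM. These are the libraries in which most proteasome positions had their lowest value of the stage. Ubi-p63E had 142 CPM in early L3 replicate 3, against 213 CPM in the nearest other library. The summed fat body markers were at 144 CPM in late L2 replicate 4, against 11.0 CPM in the nearest other late L2 library.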

How the results depend on the processing

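With no minimum fold change, 28 of the 32 standard subunits were higher in late L2 than in early L2 in limma, against 13.8% of all entries. Under the other settings run 26 to 29 were higher, against 10.6% to 16.8%. With 1 library left out 25 to 29 were higher, against 11.2% to 14.4%. The 1 member called in this interval, Rpt3R, was lost (0 called) with a pseudocount of 1 or 4, the filter of 1 CPM in 5 libraries (where it was not tested), array weights, a minimum log2 fold change of 1, and with late L2 replicate 4 and early L3 replicate 1 both left out. A pseudocount of 0.1, quantile normalization, edgeR and DESeq2 each called 1 member, Rpt3R, for early L3 versus early L2, against 32.5% to 36.8% of all entries. For the difference between the intervals, a pseudocount of 0.1, no filter on low values and no intensity trend each called 1, Rpt3R, against 19.7% to 25.2%. With no minimum fold change, 29, 11, 20 and 21 of 34 members were called for the interval during L2, the interval into early L3, both together and the difference between the intervals, and 16, 16, 15 and 17 of the 28 genes of the pathway list, against 26.5%, 54%, 65% and 36.3% of all entries. With a minimum of 1, 0 members and 0 list genes were called in each.

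Scaling moved the comparisons with early L3. For early L3 versus late L2, median-ratio scaling, TMM scaling, edgeR and DESeq2 gave medians of 0.0668, 0.0531, 0.0543 and 0.0678, with 11, 11, 11 and 12 standard subunits higher and 0 lower in place of 0 and 10 (26.8% to 28.4% of all entries were higher), and quantile normalization gave 6 lower (24.3% of all entries). For early L3 versus early L2 these 4 settings gave medians of 0.271, 0.277, 0.279 and 0.273 and 30, 31, 31 and 31 standard subunits higher, in place of 19 (31.6% to 32% of all entries). For the difference between the intervals they gave medians of −0.0968, −0.13, −0.131 and −0.0983 with 10, 11, 11 and 10 standard subunits lower, in place of 20 (19.9% to 21.9% of all entries), and quantile normalization gave −0.165 with 13 lower (18.6%). Each of the 4 called 5 list genes for early L3 versus late L2 and 5 for early L3 versus early L2, in place of 3. Of all entries, 23% to 25.4% and 32.5% to 34.8% were called. Over all entries, higher and lower calls into early L3 were 976 and 1279 with median-ratio scaling, against 631 and 1829 in CPM. The cause was not tested.

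With 1 library left out, members called ranged from 0 to 1 during L2, against 9.09% to 10.6% of all entries. For the difference between the intervals they ranged from 0 to 2, against 21.5% to 26.1%. Standard subunits lower in early L3 than in late L2 ranged from 6 (without late L2 replicate 2) to 15, against 34.2% to 37.6%. The median difference between the intervals ranged from −0.299 (without late L2 replicate 4) to −0.208. Called list genes ranged from 0 to 1 during L2, from 2 to 5 into early L3, from 3 to 5 for early L3 versus early L2 and from 4 to 9 for the difference. Of all entries, 9.09% to 10.6%, 23% to 27.1%, 32.8% to 35.3% and 21.5% to 26.1% were called, in the same order. With coding length the ratio of base to core levels was 0.616 in place of 0.661.

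The deviations of same-numbered libraries of different stages had correlations of −0.18 to 0.21, and for replicate 4 of 0.16, 0.21 and 0.10. Of 15 libraries, 3 were closest to their own number in both other stages. Whether the replicate numbers pair the samples cannot be told from these values. With the replicate block, 28 standard subunits were higher in late L2 than in early L2, against 13.2% of all entries. In early L3, 11 were lower than in late L2, against 36.9%. For the difference between the intervals 1 member, Rpt3R, was called in place of 0, against 24.6% of all entries. Promoter motifs, listed as a description, were not run.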

Other observations

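The reads of Prosalpha1 recovered from the table fell on few values. They were 94, 119, 71, 24 and 0 in early L2, 117, 24, 119, 117 and 261 in late L2, and 213, 60, 165, 24 and 24 in early L3, so that 4 libraries held exactly 24 reads and 4 held 117 or 119. The 15 read numbers of Prosalpha1R, between 2080 and 3126, were all different.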
